A study of Mus musculus with 8 samples.

Results

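The smooth muscle contractile genes described here are Acta2, Actg2, Myh11, Tagln, Cnn1, Des, Smtn, Lmod1, Myocd and Mylk. They were chosen by name: every array probe whose annotated gene was one of these 10, or a synonym of one, was taken. They make up 10 of the 24032 genes named on the array and 12 of its 55651 usable probes, since Smtn and Mylk each have 2 probes. No probe carried a synonym. Of the 10 genes, 8 were above background well enough to be tested, and Lmod1 and Myocd were not.

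The measurements came from 8 one-colour arrays in 4 groups of 2 independently prepared samples. One group is pulmonary single cells (Pu), the whole cell suspension of the lung, and the other groups are fibroblasts isolated from that suspension, labelled A-type (A), B-type (B) and C-type (C). All groups came from the lungs of adult female C57BL/6 mice of 12 to 16 weeks, with 50000 cells per sample and 10 ng of RNA amplified before labelling. The sort used antibodies to Pdgfra, Sca-1 and Thy-1, and to 6 markers of other lineages: E-Cadherin, CD45, TER119, CD31, Lyve-1 and CD146. The combination of markers that defines A, B or C, and the number of mice behind a sample, are not given in the sources used here. CD146 is also known on smooth muscle cells and pericytes. Whether the sort affected the genes described here was not tested.

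Smooth muscle cells shorten when myosin slides along actin filaments. Calcium bound to calmodulin activates myosin light chain kinase, which phosphorylates the myosin light chain, while calponin, transgelin and smoothelin bind the actin filaments and desmin links them to the rest of the cytoskeleton. Serum response factor, bound at CArG boxes and joined by the coactivator myocardin, drives many of these genes, and some of them are also known in pericytes and in myofibroblasts of the lung.

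Smtn and Mylk were each read by a pair of probes. The Smtn probes differed from Pu in the same direction in A, B and C, and the Mylk probes did so in B but not in A or C. The first 30 bases of each of these 60-base probes are shown. Those of the Myh11 probe, the member that differed most from the lung suspension, are shown too. They run 5′ to 3′, all in lower case because no stretch is singled out.
Myh11: tagaaggtgctgtcaaagccaagctcaagt
Smtn, brighter probe: tctgtcaaaacacctctcccctttgtacac
Smtn, other probe: tggatacagaggacatggtgcggcttcgag
Mylk, brighter probe: aggacatttatcatgtttcttccatcctga
Mylk, other probe: gcaagagaattgcaagatcaaggccagccc
Per the array files these lie on mouse build mm9. The Myh11 probe is at chr16:14202190-14202249 on the minus strand. The brighter Smtn probe is at chr11:3417530-3417589 and the other at chr11:3420834-3420893, both on the minus strand, so the brighter one is further downstream. The brighter Mylk probe is at chr16:35001266-35001325 and the other at chr16:34953958-34954017, both on the plus strand, and again the brighter one is further downstream. The brighter Mylk probe is annotated to the RefSeq transcript, whereas the other carries only a cDNA clone. Whether each probe lies in coding sequence or in a UTR was not worked out here.

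Values are given as relative signal, the background-subtracted signal divided by the 75th percentile of all probes on the same array, so 1 means a signal at that percentile. Differences are on the log2 scale of these values, from limma fitted to all 8 arrays and 17475 genes, and a gene was called where its p, adjusted by the Benjamini-Hochberg method, was under 0.05. Levels of different genes come from different probes and are not compared.

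The 75th percentile of the processed signal ranged from 110 to 250 over the arrays, and 54.6% to 68.7% of spots were well above background. Replicates correlated at 0.985 in A and B, 0.946 in C and 0.915 in Pu, and 5.21% of genes in A against 31.3% in Pu were at least 2-fold apart between replicates. Both Pu arrays were on slide 1 and all 6 fibroblast arrays on slide 2, so slide and cell source cannot be told apart in any comparison with Pu, whereas A, B and C are compared within slide 2. Against Pu, 8 of 8 pan-fibroblast markers were called higher in each type, where 14.9%, 16.2% and 14.8% of all genes were in A, B and C. Their summed relative signal was 69.3 to 96 in Pu and 553 to 1080 in the fibroblasts. Pdgfra, in this list, was a target of the sort antibodies, so the list is not independent of the sort. The summed endothelial list was 84.2 to 108 in Pu and 5.19 to 12.4 in the fibroblasts. It holds Pecam1, the gene of CD31, so it too is not independent of the sort. The alveolar epithelial list summed to 263.5 and 279.2 in Pu, 17.6 and 10.4 in C, and 6.70 to 10.5 in A and B. Sftpc, in that list, was at 8.82 and 2.42 in C and 0.283 to 0.917 in A and B. The leukocyte list summed to 189 to 243 in Pu and 5.39 to 7.11 in the fibroblasts. Of the pericyte list of 13 genes, Mcam, which encodes CD146, had a relative signal of 448 and 497 in Pu and 367 to 422 in the fibroblasts. The probe of Capza1, outside this list, gave a similar 438.5 and 534.3 in Pu and 368.6 to 435 in the fibroblasts. Whether the Mcam probe reads Mcam alone was not tested. The other 12 genes summed to 9.62 and 15.1 in Pu, 37.4 and 39.8 in A, 38.9 and 33.8 in B, and 26.0 and 28.8 in C. Of the 37.4 in A replicate 1, Pdgfrb gave 17.5 and Abcc9 12.2. The median log2 difference of the 13 genes from Pu was -0.23 in A, -0.02 in B and -0.05 in C.

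Against Pu, the members split. Smtn was higher in all 3 fibroblast types, Myh11 and Cnn1 were lower in all 3, and Mylk was lower in B and higher in C. Des was lower in B, and Acta2, Actg2 and Tagln passed in no comparison. In A, 1 of 8 tested members was called higher and 2 lower, where 26.8% of all genes tested were called, 14.9% higher and 11.9% lower. In B, 1 was higher and 4 lower, where 29.2% of all genes were called, 16.2% higher and 13% lower. In C, 2 were higher and 2 lower, where 28.7% of all genes were called, 14.8% higher and 13.8% lower. The median log2 difference of the members was -0.78 in A, -1.28 in B and -0.55 in C, beside 0.11, 0.11 and 0.05 over all genes. The 3 comparisons share the Pu arrays. Between fibroblast types, 1 member was called, Mylk between B and C.

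**Figure D1:**
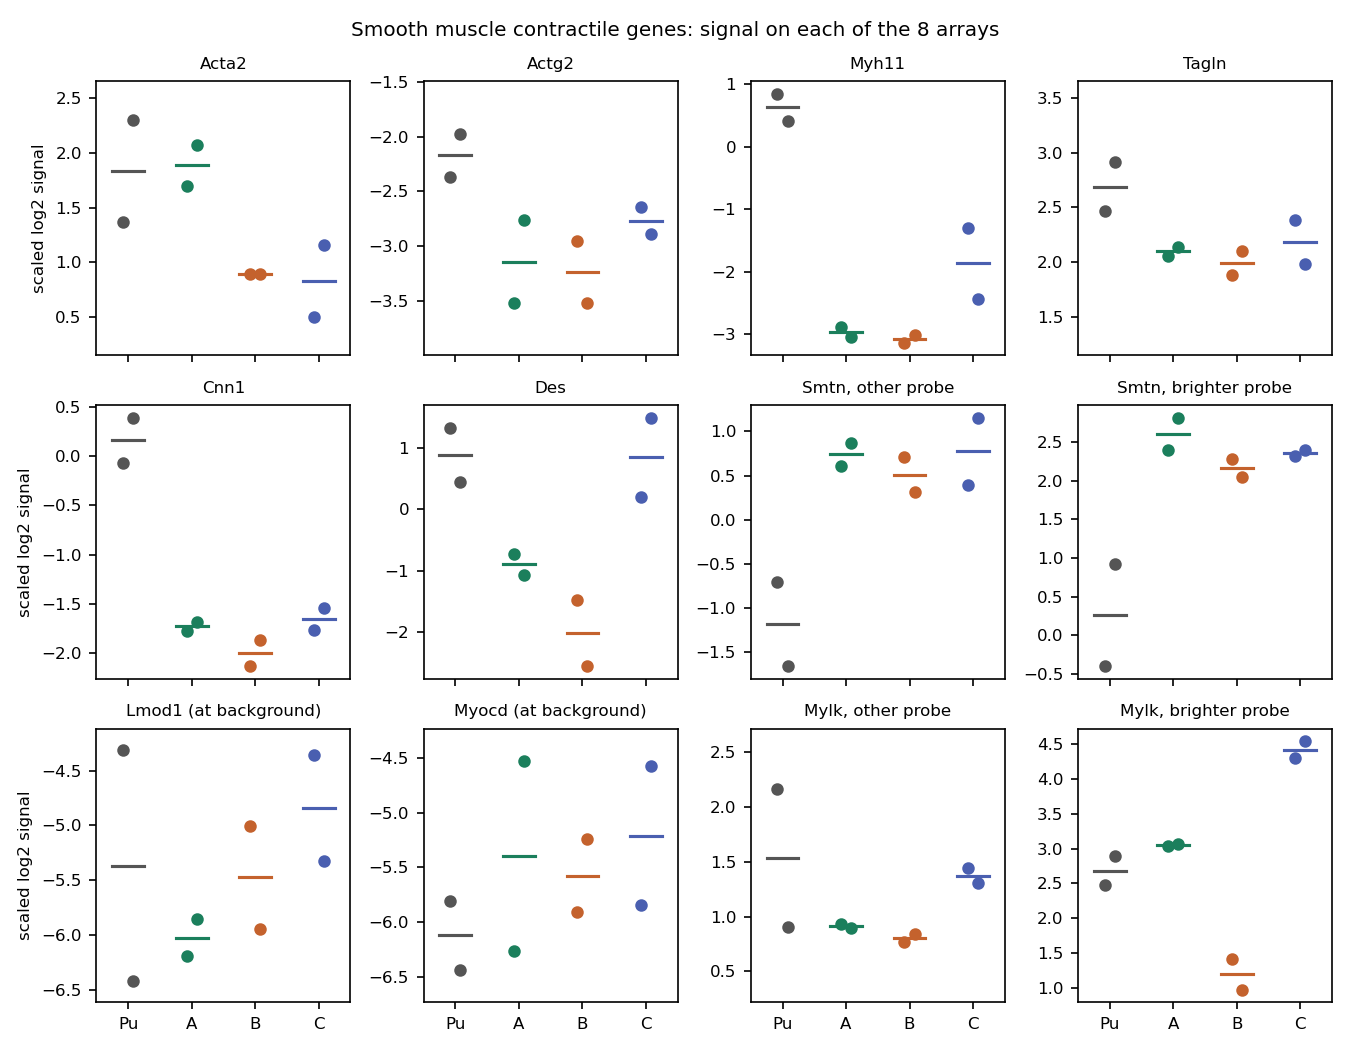
Scaled log2 signal (y axis, log2 of the relative signal) of the 12 probes in the 4 groups, with a point for each array and a bar at the mean of 2. The Myh11 and Cnn1 points of Pu lie above all fibroblast points, the Smtn points of Pu lie below them, and the brighter Mylk probe runs from B, the lowest, to C, the highest.

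Myh11 encodes the smooth muscle myosin heavy chain, the motor of the thick filament. Its relative signal was 1.80 and 1.33 in Pu, 0.135 and 0.120 in A, 0.113 and 0.124 in B, and 0.405 and 0.185 in C. Every fibroblast array lay below both Pu arrays, and both C arrays lay above all 4 arrays of A and B. C replicate 1, the brighter C array, also had the highest alveolar epithelial sum among the fibroblast arrays. Whether other cells contributed to its Myh11 signal was not tested. In A and B the Myh11 signal was dim, at -3.14 to -2.89 on the log2 scale. The dimmest signals well above background were at -4.41 to -3.32 over the arrays. Myh11 fell by 3.60 ± 0.41 (SE) on the log2 scale in A (12.2-fold, adjusted p = 0.00102, limma, n = 2 against 2). The decrease was 13.1-fold in B (-3.71, limma adjusted p = 0.000886) and 5.64-fold in C (-2.50, limma adjusted p = 0.00488). In bulk samples, fewer cells that carry a transcript and less of it per cell cannot be told apart. The 3 calls held under each of 21 alternative settings, with the smallest differences, -2.08 in A, -2.04 in B and -1.54 in C, under normexp background correction, which adds an offset to every signal. Between types, C exceeded A by 1.11 and B by 1.21 on the log2 scale, and neither passed (limma adjusted p = 0.323 and 0.225).

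Acta2, smooth muscle alpha-actin, is also the classic marker of the myofibroblast. Its probe, at mm9 chr19:34316060-34316119 on the minus strand, is printed as 10 spots on each array, and the signal varied over them with a coefficient of variation of 2.52% to 4.91%. The relative signal was 2.58 and 4.92 in Pu, 3.25 and 4.21 in A, 1.86 and 1.86 in B, and 1.42 and 2.24 in C. Both A arrays lay above all B and C arrays and inside the range of Pu, whose own arrays were further apart than those of any other group. Against Pu the log2 difference was 0.05 in A, -0.94 in B and -1.0 in C, each with an SE of 0.41, and none passed (limma adjusted p = 0.934, 0.128 and 0.109). Without Pu replicate 1 the differences in B and C were -1.40 and -1.47 and passed (limma adjusted p = 0.0382 and 0.0320), and over 21 alternatives these p-values ran to 0.387 in B and 0.379 in C. A exceeded B by 0.99 and C by 1.06, with unadjusted p of 0.0443 and 0.0352 and limma adjusted p of 1.00 and 0.340. Actin genes are near-identical in their coding sequence, and whether this probe also reads another actin was not tested.

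**Figure D2:**
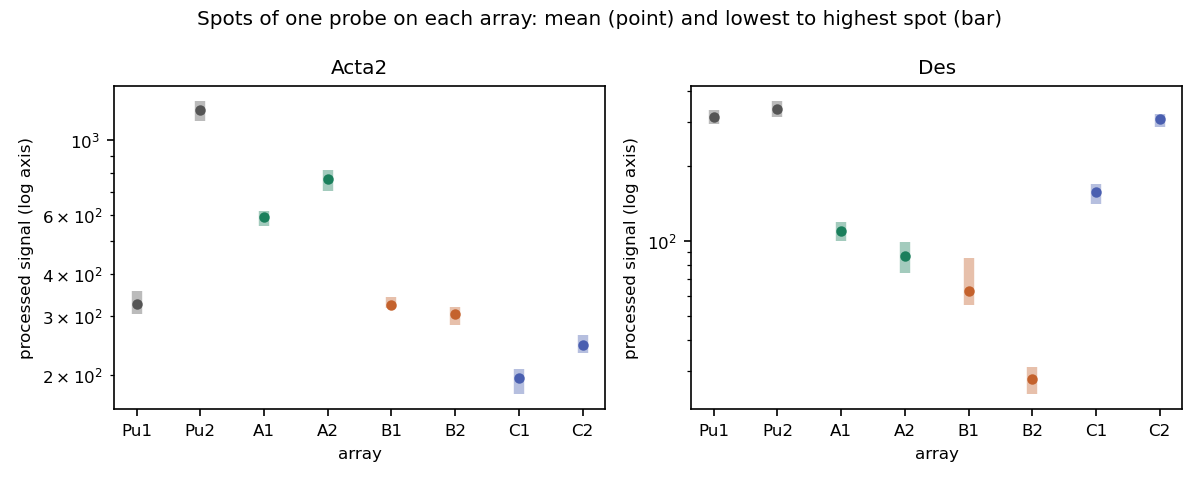
Processed signal on a log axis of the spots of the Acta2 and Des probes on each of the 8 arrays, as the mean (point) and the span from the lowest to the highest spot (bar). The bars are short beside the distances between arrays, with a coefficient of variation of at most 4.91% for Acta2 and 14.1% for Des.

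Actg2, the gamma-actin of smooth muscle in the gut and airways, was dim everywhere. Relative signals were 0.193 and 0.255 in Pu, 0.087 and 0.148 in A, 0.129 and 0.087 in B, and 0.160 and 0.135 in C. All fibroblast arrays lay below both Pu arrays, by a small distance in C. The log2 differences from Pu were -0.97 in A, -1.06 in B and -0.60 in C, with an SE of 0.38, and none passed (limma adjusted p = 0.103, 0.0752 and 0.280).

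Mylk encodes myosin light chain kinase, which switches on contraction, and its gene is also known to give telokin, a short product without kinase activity. The brighter probe gave a relative signal of 5.58 and 7.39 in Pu, 8.17 and 8.38 in A, 2.66 and 1.96 in B, and 19.7 and 23.3 in C. No groups overlapped, and the order was C, A, Pu and B, from high to low. Against Pu, Mylk was 3.34-fold higher in C (1.74 ± 0.31, limma adjusted p = 0.00636) and 2.82-fold lower in B (-1.49 ± 0.31, limma adjusted p = 0.0114). In A the log2 difference was 0.37 ± 0.31 (limma adjusted p = 0.411). A and Pu, neighbours in the order, were thus not called different, though their arrays did not overlap. The SE rests on a spread estimated over all 4 groups.

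Between types, Mylk was 9.40-fold lower in B than in C (-3.23 ± 0.31, limma adjusted p = 0.00500). It was the 1 member called in that comparison, where 2.41% of all genes were called, 1.26% higher in B and 1.16% lower. A exceeded B by 1.86 (3.63-fold) and lay below C by 1.37 (2.59-fold), and neither passed over all genes (limma adjusted p = 0.225 and 0.127). With array weights the difference between A and B passed (limma adjusted p = 0.00825), and over 22 alternatives this p ran up to 1. The call between B and C was lost without B replicate 1 or B replicate 2 (limma adjusted p = 0.0602 and 0.0684) and held under the other 20 of 22 alternatives, with p from 0.000510. Fitted on the 6 fibroblast arrays alone it had a limma adjusted p of 0.00639.

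The other Mylk probe did not show this order. Its relative signal was 4.48 and 1.87 in Pu, 1.91 and 1.86 in A, 1.70 and 1.79 in B, and 2.71 and 2.47 in C. Both C arrays lay above all A and B arrays, and Pu replicate 1 lay above every other array. In a fit of all 37855 probes above background, none of its differences passed: it was -0.62 in A, -0.73 in B and -0.16 in C against Pu (limma adjusted p = 0.363, 0.276 and 0.828), and -0.57 between B and C (limma adjusted p = 0.644). In the same fit the brighter probe kept its call between B and C (limma adjusted p = 0.00953). The distance between the probes, brighter minus other, was 0.64 and 0.13 in B, 2.10 and 2.17 in A, and 2.86 and 3.24 in C on the log2 scale. In Pu it was 0.32 and 1.99, so 1 Pu array lay within the range of B and the other just below A. With the mean of both probes in place of the brighter one, the difference of C from Pu was 0.79 and no longer passed (limma adjusted p = 0.0673, the highest of 21 alternatives), and that between B and C was -1.90 and passed (limma adjusted p = 0.0167). The call of C against Pu was also lost with the 4 arrays alone and with array weights. The call of B against Pu was lost with median scaling, with the authors' value table and without B replicate 2 (limma adjusted p up to 0.101 over 21 alternatives).

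**Figure D3:**
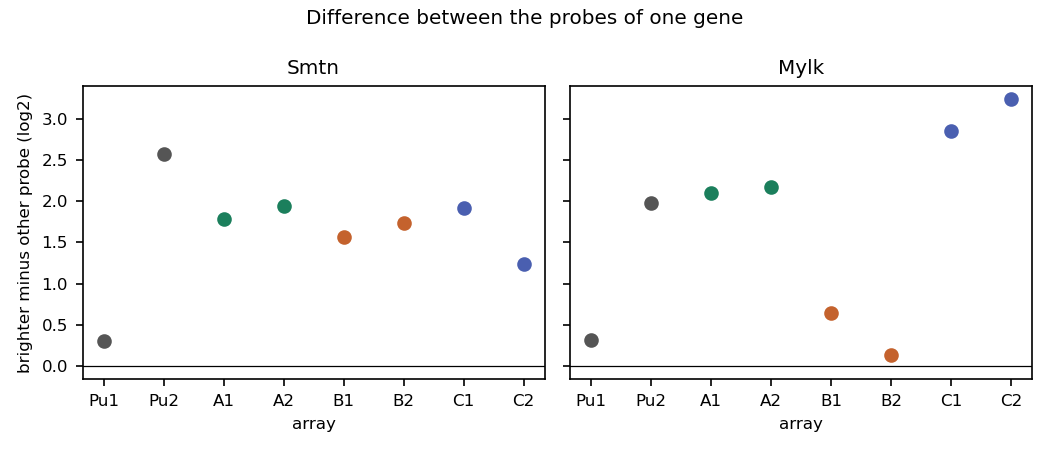
Log2 distance between the brighter and the other probe of Smtn and of Mylk (y axis) on each of the 8 arrays (x axis). For Mylk the distance is 0.13 to 0.64 in B and 2.86 to 3.24 in C; for both genes Pu replicate 1 lies near 0.3 and Pu replicate 2 near or above that of A.

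Smtn encodes smoothelin, an actin-binding protein known from contractile smooth muscle. The brighter probe had a relative signal of 0.756 and 1.89 in Pu, 5.25 and 7.04 in A, 4.85 and 4.12 in B, and 4.96 and 5.25 in C. Each fibroblast array exceeded both Pu arrays, and the 3 types lay close together. Smtn rose 5.08-fold in A (2.34 ± 0.45, limma adjusted p = 0.00917), 3.74-fold in B (1.90, limma adjusted p = 0.0202) and 4.27-fold in C (2.09, limma adjusted p = 0.0143). The other probe had a relative signal of 0.615 and 0.317 in Pu and 1.24 to 2.23 on the fibroblast arrays, again with no overlap. In the fit of all probes it rose 3.78-fold in A, 3.22-fold in B and 3.88-fold in C (limma adjusted p = 0.0255, 0.0377 and 0.0220).

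Between Pu replicates 1 and 2 the Smtn probes moved in opposite directions. The brighter one rose from 0.756 to 1.89, and the other fell from 0.615 to 0.317. The size of the Smtn difference at the brighter probe depended on the Pu arrays. Against Pu replicate 2 alone it was 3.21-fold in A, 2.36-fold in B and 2.70-fold in C, and against Pu replicate 1 alone 8.03-fold, 5.91-fold and 6.75-fold. The call was lost without A replicate 2 in A, without either B replicate in B and without C replicate 2 in C. It was also lost with the 4 arrays alone in B and C and with array weights in C. Over 21 alternatives the limma adjusted p ran up to 0.0762 in A, 0.119 in B and 0.0718 in C. Between types no Smtn difference exceeded 0.44 on the log2 scale, and none passed.

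Cnn1 encodes calponin 1, which binds actin and slows the myosin motor, and is known as a marker of mature smooth muscle. The relative signal of Cnn1 was 0.953 and 1.31 in Pu, 0.293 and 0.311 in A, 0.228 and 0.274 in B, and 0.295 and 0.344 in C. All 6 fibroblast arrays lay below both Pu arrays and close to each other. Cnn1 was 3.70-fold lower in A (-1.89 ± 0.30, limma adjusted p = 0.00386), 4.47-fold lower in B (-2.16, limma adjusted p = 0.00217) and 3.50-fold lower in C (-1.81, limma adjusted p = 0.00470). The calls in A and B held under all 21 alternatives, though normexp background correction gave -1.24 in A, -1.32 in B and -1.11 in C. That in C was lost when the fit held the 4 arrays of C and Pu alone (limma adjusted p = 0.0571, the highest of the 21).

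Tagln encodes transgelin (SM22), an early actin-associated marker of the lineage that fibroblasts also express. Tagln had a relative signal of 5.51 and 7.54 in Pu, 4.17 and 4.40 in A, 3.69 and 4.29 in B, and 5.23 and 3.95 in C. The fibroblast arrays all lay below those of Pu, with C replicate 1 close to Pu replicate 1. The log2 differences were -0.59 in A, -0.70 in B and -0.50 in C with an SE of 0.31, and none passed (limma adjusted p = 0.198, 0.133 and 0.263).

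Des encodes desmin, the intermediate filament protein of muscle, which is also known in pericytes and some lung fibroblasts. Des had a relative signal of 2.51 and 1.36 in Pu, 0.602 and 0.479 in A, 0.361 and 0.170 in B, and 1.14 and 2.80 in C. The C arrays spanned the range of Pu, A lay below both, and B lay below A. Des was 7.45-fold lower in B than in Pu (-2.90 ± 0.57, limma adjusted p = 0.00976). In A the difference was -1.78 (limma adjusted p = 0.0588), which passed under 7 of 21 alternatives with p from 0.0226 to 0.250, and in C it was -0.04 (limma adjusted p = 0.966).

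Among the types, Des was 7.23-fold lower in B than in C (-2.85), just outside the threshold (limma adjusted p = 0.0572). This difference passed under 5 of 22 alternatives, among them normexp background correction (-1.76, limma adjusted p = 0.0298) and leaving out C replicate 1 (limma adjusted p = 0.0318), with p up to 0.333. The call in B against Pu was lost without B replicate 2 (limma adjusted p = 0.0703, the highest of 21 alternatives), and was -1.83 with normexp. The Des probe is annotated on mm9 to chr1:75363404-75363629 on the plus strand, 226 bases for a 60-base probe, so the annotated span is not contiguous with the probe.

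**Figure D4:**
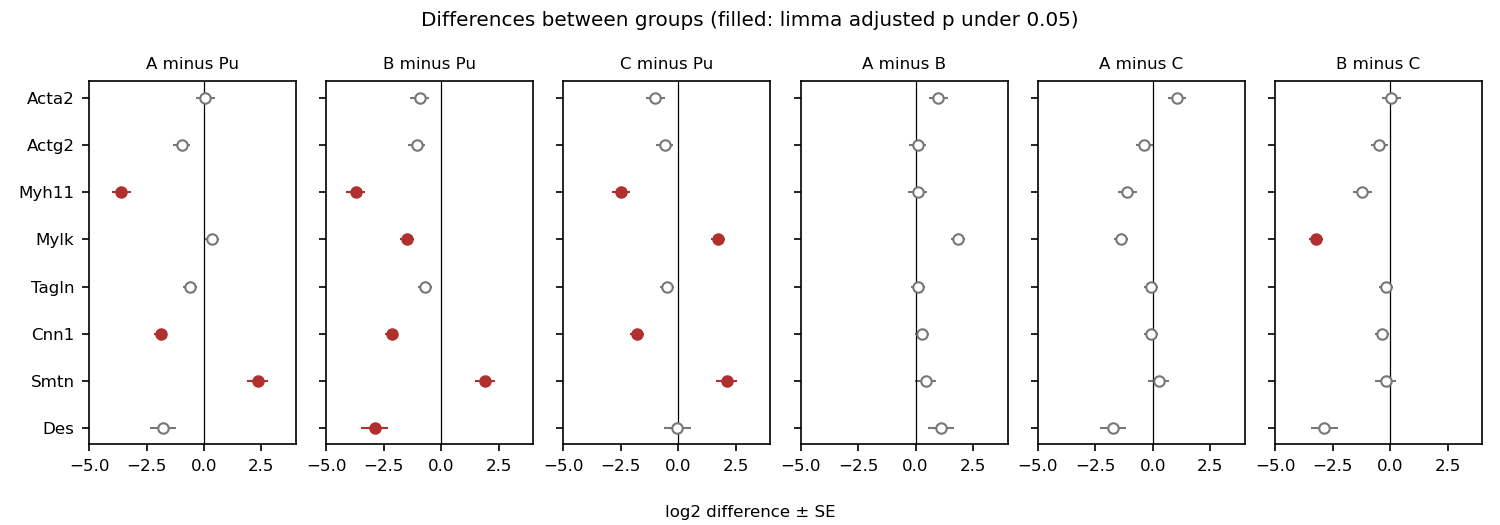
Log2 difference ± SE (x axis) of the 8 tested members in each of the 6 comparisons, with filled points where the limma adjusted p is under 0.05. Myh11 and Cnn1 are filled on the negative side and Smtn on the positive side in all 3 comparisons with Pu, and Mylk, at -3.23, is the filled point among the comparisons between fibroblast types.

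Lmod1 encodes leiomodin 1, which starts new actin filaments in smooth muscle, and Myocd encodes myocardin, the coactivator of serum response factor. Neither was well above background on any of the 8 arrays: the relative signal was 0.012 to 0.050 for Lmod1 and 0.012 to 0.043 for Myocd. They were therefore not tested, in Pu as in the fibroblasts, and this leaves only an upper limit on their signal at these probes.

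Between A and B the mean of all 8 tested members was higher in A, with a median log2 difference of 0.36 beside -0.01 over all genes. None passed, and neither did any other gene, so percent called was 0. At an unadjusted p under 0.05 limma gave 2 of 8 members (Acta2 and Mylk) and 566 of 17475 genes. The sign of Actg2 turned under 2 of 22 alternatives and those of Myh11 and Tagln under 1 each. Between A and C, limma called 0 members, where 0.389% of all genes were called (0.275% higher in A and 0.114% lower), and 4 members had an unadjusted p under 0.05, as did 2267 genes. Of the 8, 2 were higher in A (Acta2 and Smtn) and 6 were higher in C. Between B and C, 3 members had an unadjusted p under 0.05, as did 2654 genes, and 7 of 8 were higher in C, with a median of -0.41 beside 0.06 over all genes.

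Of the other genes of the contractile machinery, 27 tested, 3 were called higher and 1 lower in A against Pu, 4 and 2 in B, and 6 and 0 in C. These are 14.8%, 22.2% and 22.2% of the list, below the 26.8%, 29.2% and 28.7% of all genes. Their median log2 difference was 0.43, 0.22 and 0.67, and with the percentile of the probes detected on every array B had 2 higher and 2 lower with a median of -0.10. Myl9, the regulatory light chain that the kinase phosphorylates, was 3.86-fold, 3.53-fold and 3.70-fold higher in A, B and C (limma adjusted p = 0.0156, 0.0197 and 0.0174). Cnn3, the calponin of non-muscle cells, was 4.90-fold higher in A and 4.71-fold in B (limma adjusted p = 0.0217 and 0.0227), opposite to Cnn1. On Pu replicates 1 and 2 the relative signal was 1.664 and 3.906 for Myl9 and 1.53 and 5.314 for Cnn3, so both sizes depended on the Pu array. Nexn, an actin-binding protein, was 3.37-fold, 2.32-fold and 5.30-fold higher in A, B and C (limma adjusted p = 0.00673, 0.0270 and 0.00185). Cald1, caldesmon, was 2.52-fold higher in B and 3.35-fold in C (limma adjusted p = 0.0251 and 0.00930). Actn1, alpha-actinin, was lower in B than in C (-2.22, limma adjusted p = 0.0143), with a relative signal of 0.900 and 0.954 in B and 3.78 and 4.93 in C.

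Genes of contraction signalling and ion channels, 25 tested, were called both ways: 2 higher and 6 lower in A, 2 and 5 in B, and 6 and 6 in C. These are 32%, 28% and 48% of the list, beside 26.8%, 29.2% and 28.7% of all genes. The balance moved with scaling: in B it was 4 and 4 with median scaling and 0 and 6 with the percentile of the probes detected on every array. Trpc6, a cation channel of vascular smooth muscle, was well above background in Pu and on none of the fibroblast arrays, and was at least 16.5-fold lower in A, 15.0-fold in B and 12.0-fold in C (limma adjusted p = 7.04e-05, 9.15e-05 and 0.000109). These bounds set the Pu mean against the dimmest signal that was well above background on each fibroblast array. Kcnmb1, the smooth muscle subunit of a calcium-activated potassium channel, was likewise at least 4.24-fold, 3.87-fold and 3.09-fold lower (limma adjusted p = 0.000974, 0.00187 and 0.00164). Ppp1r14a, which inhibits myosin phosphatase, was 5.54-fold lower in B than in C (limma adjusted p = 0.00961). Its relative signal was 0.477 and 0.503 in B, 0.709 and 0.839 in A, and 3.07 and 2.40 in C. It was named for its difference between B and C, so C above B followed from that choice.

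Among 21 tested genes of the serum response factor and smooth muscle transcription list, 7 were higher and 2 lower in A, 8 and 3 in B, and 4 and 4 in C. That is 42.9%, 52.4% and 38.1% of the list, beside 26.8%, 29.2% and 28.7% of all genes. The list median was -0.07, -0.08 and -0.30, and with median scaling 0.26, 0.27 and 0.11. Prdm6, a repressor known in smooth muscle, was 10.6-fold, 8.34-fold and 15.8-fold higher (limma adjusted p = 0.000272, 0.000397 and 0.000198). Notch3, a receptor of mural cells, was lower in all 3 types, 5.31-fold in A (limma adjusted p = 0.0362). In B and C the probe was well above background on 1 of 2 arrays each, with log2 differences of -3.66 and -3.83 (limma adjusted p = 0.00696 and 0.00603). Srf itself, named after its values were seen, was 3.0-fold, 2.34-fold and 2.40-fold higher (limma adjusted p = 0.0217, 0.0496 and 0.0457). Its relative signal was 4.955 and 9.93 in Pu, so the size depended on the Pu array, and 14.85 to 21.62 on the fibroblast arrays.

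The list of other smooth muscle identity genes, 13 tested, held 5 higher and 2 lower in A, 6 and 5 in B, and 7 and 2 in C. That is 53.8%, 84.6% and 69.2% of the list, beside 26.8%, 29.2% and 28.7% of all genes. Pcp4l1 was above background in Pu alone and at least 35.8-fold, 32.6-fold and 26.1-fold lower (limma adjusted p = 0.000196, 0.000187 and 0.000270). Npnt, nephronectin of the extracellular matrix, was 66.2-fold lower in B than in C (limma adjusted p = 0.00177). Its relative signal was 0.971 and 1.34 in B, 8.26 and 9.29 in A, and 66.2 and 86.2 in C. Adra1a, an adrenergic receptor that drives contraction, was 46.9-fold lower in B than in C (limma adjusted p = 0.00314), with 0.189 and 0.345 in B, 1.63 and 1.79 in A, and 9.10 and 15.8 in C. In both genes A lay between B and C. Both were named for their difference between B and C, so C above B followed from that choice. Pu was at 11.9 and 13.1 for Npnt, above A. For Adra1a it was at 2.02 and 1.58, overlapping A. Aoc3, an amine oxidase of the smooth muscle surface, ran the other way, 7.20-fold higher in B than in C (limma adjusted p = 0.00570).

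**Figure D5:**
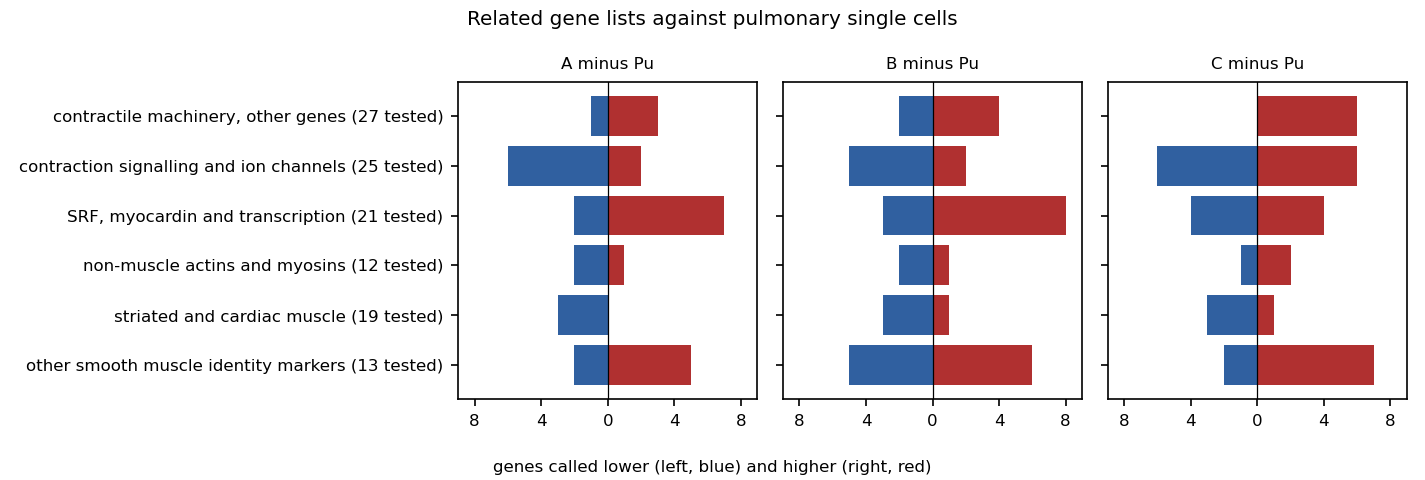
Number of genes called lower (bars to the left) and higher (bars to the right) in A, B and C against Pu for 6 related gene lists, with the number tested in brackets. In C the other contractile machinery has 6 higher and 0 lower, and signalling and ion channels 6 higher and 6 lower.

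The non-muscle actin and myosin list, 12 tested, had 3 genes called in each type, or 25% of the list. Over all genes the share was 26.8% in A, 29.2% in B and 28.7% in C. The striated and cardiac muscle list, 19 tested, had 3 in A, 4 in B and 4 in C, or 15.8%, 21.1% and 21.1%, below the share of all genes. Of these 3 were lower in each type, and with median scaling A had 2 higher and 2 lower. Rgs5, a defining gene of pericytes, was above background on both Pu arrays and on none of the 6 fibroblast arrays, at least 5.65-fold lower in A, 5.15-fold in B and 4.11-fold in C (limma adjusted p = 0.00595, 0.00325 and 0.0115). Of the 13 pericyte genes, 4 were higher and 5 lower in A, 4 and 4 in B, and 4 and 3 in C, or 69.2%, 61.5% and 53.8%. The 4 higher genes were Lamc3, Abcc9, Kcnj8 and Pdgfrb in each type. In A, Abcc9 and Kcnj8, subunits of a potassium channel, were 19.2-fold and 17.0-fold higher (limma adjusted p = 0.00520 and 0.000773), and Pdgfrb, a growth factor receptor, 4.81-fold (limma adjusted p = 0.00710). Lamc3, a laminin chain, was higher by 4.50 on the log2 scale (limma adjusted p = 0.000704), with its probe well above background on 1 of the 2 Pu arrays. Rgs5 and these 4 pericyte genes were named after their values were seen. The part of smooth muscle cells or pericytes, in the suspension or in the sorted cells, in the differences of Myh11, Cnn1 and Des was not tested.

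Acta2 is a textbook target of serum response factor, and a promoter window from RefSeq on build GRCm38.p6 was at hand for 6 of the 10 members (Acta2, Cnn1, Des, Smtn, Lmod1 and Mylk). The CArG box was searched in the 250 bases before to 50 bases after the start, on both strands, which coincide for this palindromic motif. Exact boxes were in 1.63% of 32851 windows and in 0 of the 6. Allowing 1 C or G among the 6 central bases, 9.98% of all windows and 1 of the 6 held a match. That window was Acta2, with CCCTATATGG starting 84 bases and CCTTGTTTGG 34 bases before the annotated start. The 250 bases upstream of Acta2, chr19:34255374-34255623 on the minus strand, have both matches in capitals.
Acta2: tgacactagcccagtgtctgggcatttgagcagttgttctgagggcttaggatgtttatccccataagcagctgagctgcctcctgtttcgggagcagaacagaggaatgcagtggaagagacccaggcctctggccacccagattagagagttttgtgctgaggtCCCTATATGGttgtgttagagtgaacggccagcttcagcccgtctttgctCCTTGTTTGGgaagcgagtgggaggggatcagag
No match in the other windows says only that these letters are not in those 300 bases.

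The genes whose pattern over the 8 arrays was most like a member were found by the mean absolute difference after each gene was centred on its own mean. For Acta2 these were Msra (0.17 on the log2 scale), Lrcol1 (0.18), Kmt2d (0.18), Cxcl12 (0.19) and Zg16 (0.20), of which Lrcol1 was above background on 3 arrays. For Smtn they were Mfap4 (0.09), Tspan5 (0.10), Mettl26 (0.11), Impdh2 (0.12) and Iqsec2 (0.12). For Myh11 the nearest were Gimap7, Ccnjl, 5430437J10Rik and Trim36 (0.24 to 0.25), each above background on 2 arrays alone, and Nckap5 (0.25), which was above background on all 8.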

How the data were processed

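RNA from 8 samples was measured on one-colour Agilent arrays. The deposited scanner files hold spot intensity from Agilent Feature Extraction 10.10.1.1, per the file headers and the submitters' processing notes. The background-subtracted processed signal was used. The authors' value table holds log2 values, which equalled the log2 processed signal minus 1 constant per array within 0.02 for at least 99.7% of probes, and was an alternative.

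Control spots and 30 probes with outlier spots were left out, and spots of one probe were averaged. Signals were put on the log2 scale minus the array's 75th percentile. Probes well above background on both arrays of at least 1 group were kept, and the brightest kept probe stood for a gene. Names came from the RefSeq table (GRCm38.p6) by accession, otherwise from the files. One limma (3.58.1, R 4.3.3) fit of 4 group means gave 6 comparisons, with 4 residual degrees of freedom. P-values rest on a spread pooled over the 4 groups and moderated over all genes, with 3.07 prior degrees of freedom. The pooling joins groups of unequal spread, since replicates were less alike in Pu and C than in A and B. Having 2 arrays per group limits the precision. The fit was tested on simulated data.

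The members and gene lists were chosen with earlier results of these data known. All members are named; of each list, up to 3 called genes with the largest difference per comparison, and for Acta2, Myh11 and Smtn the 5 nearest genes. Alternatives covered scaling, background, filter, probe choice, variance model, array weights, the arrays fitted, the replicate block and leaving out each array; the fit on the 6 fibroblast arrays was added after seeing the data.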

Additional observations from a re-analysis of the deposited data

How the results depend on the processing

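The 13 member calls had 274 values under alternatives, of which 257 passed and 17 did not; of 758 values of members not called, 20 passed. No called member changed sign. Among differences that were not called, 20 values took the other sign and none of these passed. They were Des in C against Pu with median scaling (0.36) and the authors' value table (0.36), Acta2 in A against Pu with the percentile of the probes detected on every array (-0.24) and quantile normalization (-0.17), Mylk in A against Pu with the mean of its probes (-0.13), and with normexp Actg2 in C against Pu (0.0172), Myh11 between A and B (-0.0359) and Tagln between A and C (0.0099). The other 12 came from leaving out 1 array, which gave ranges of -0.41 to 0.52 for Acta2 in A against Pu, -0.69 to 0.60 for Des in C against Pu, -0.29 to 0.47 for Actg2 and -0.0034 to 0.21 for Tagln between A and B, -0.75 to 0.0095 for Actg2, -0.29 to 0.12 for Tagln and -0.19 to 0.0333 for Cnn1 between A and C, and -0.26 to 0.39 for Acta2 and -0.40 to 0.0116 for Tagln between B and C. Called members against Pu went from 3 to 5 in A with the 75th percentile taken over probes detected on every array, and from 4 to 1 in C with only the 4 arrays compared and to 2 with array weights. Between B and C the count went from 1 to 2 with normexp, with a filter for detection on every array, with a trended robust variance and with array weights, and between A and B from 0 to 1 with array weights. Leaving out 1 array at a time gave 2 to 4 members in A, 2 to 6 in B and 3 to 5 in C against Pu, 0 to 0 between A and B and between A and C, and 0 to 2 between B and C.

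Replicate numbers did not pair the samples (correlation of same-numbered deviations -0.08 to 0.06); with a replicate block the counts stayed 3, 5, 4, 0, 0 and 1, and no member call changed, while all genes called between A and C went from 68 to 0.

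Over all genes, calls between A and B went from 0 to 21 with normexp, 4 with the trended variance and 236 with array weights. Between A and C they went from 68 to 178 with normexp, 1 without a filter, 25 with every probe, 137 with the trended variance, 0 with only 4 arrays, 218 with array weights and 181 with only the 6 fibroblast arrays (0 to 493 without 1 array). Between B and C they went from 422 to 246 without a filter, 106 with only 4 arrays, 739 with array weights and 812 with only the 6 fibroblast arrays (2 to 932 without 1 array). C against Pu went from 5007 to 7843 with every probe, 2272 with only 4 arrays and 2162 with array weights (3681 to 6328 without 1 array), and A and B against Pu ranged from 2153 to 6829 and from 2355 to 7045 without 1 array. The cause was not tested.

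Scaling moved the whole scale: with median scaling the median over all genes was 0.44, 0.46 and 0.45 in A, B and C against Pu and 68.3%, 69.7% and 69.1% of calls were higher, and with the percentile of the probes detected on every array it was -0.18, -0.21 and -0.26 with 41.5%, 38.7% and 35.9% higher, beside 55.7%, 55.6% and 51.8%. With median scaling Mylk in B no longer passed (-1.14), and with the other percentile Actg2 in A and B, Tagln in B, Acta2 in C and Des in A did. A block for slide could not be run, since Pu and the fibroblasts share no slide. Lmod1 and Myocd, near background on all arrays, have only an upper limit.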
